A study of Anser cygnoides with 6 samples.

Results

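The autophagy, lysosome and cathepsin genes of the goose ovary were taken as all genes whose symbol names an ATG or WIPI protein, ULK1, ULK2, BECN1, a member of the ATG8 family (MAP1LC3 and GABARAP), SQSTM1, TFEB, LAMP1 to LAMP3, a single-letter cathepsin, a subunit or accessory protein of the vacuolar proton pump (V-ATPase), or a VPS protein. The rule found 88 genes of 14696 in the table, of which 45 were named by the deposited table and 43 by a reference table of goose genes. RNA of the ovary of the swan goose, Anser cygnoides, was sequenced in 3 broody and 3 reproductive libraries. Broody geese were at the stage of broodiness and had been put through forced moulting and short light. Reproductive geese were at the stage of reproduction. All birds were 40 weeks old and housed under controlled light, and the same short light programme of 11 h light and 13 h dark is given for every library. Broodiness, moulting and any difference in light cannot be told apart in this design. The labels name the ovary but no part of it, and leave it unsaid whether each library is from a bird of its own, so a p-value here speaks only to spread between libraries, part or all of which may be technical. The design text names oviduct where the labels name ovary. The ovarian genes AMH (granulosa hormone, 202 to 295 FPKM in broody and 53.4 to 64.5 in reproductive libraries) and FSHR were present in all 6 libraries. Of 11 oviduct symbols looked for only TF was found, at 0.969 to 4.79 FPKM in broody and 2.27 to 71.1 FPKM in reproductive libraries. The other symbols were absent from the gene names, so their levels are unknown and this search cannot tell whether oviduct was present.

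Autophagy is the process by which a cell wraps part of its cytoplasm in a double membrane, the autophagosome, and delivers it to the lysosome. ULK kinases and the beclin complex start the membrane, WIPI and ATG2 proteins let it grow, and a conjugation chain of ATG proteins ties ATG8 proteins to its lipid. The V-ATPase acidifies the lysosome, cathepsins digest what arrives there, LAMP proteins coat the lysosomal membrane, and VPS complexes carry membranes and enzymes among endosomes, Golgi and lysosome. In the ovary these routes take part in the turnover of follicle cells, in the digestion of matrix and, in the oocyte of birds, in the cleavage of yolk proteins taken up by endocytosis, where cathepsin D acts.

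Values are FPKM, the fragments on a transcript divided by its length and by how many fragments the library mapped, and can be compared between genes. Differences are broody minus reproductive on the log2(FPKM + 1) scale, with their standard error (SE), and understate changes of genes at low FPKM. They were tested with limma over all 11377 genes with at least 1 FPKM in 3 or more libraries, and a gene was called at a Benjamini-Hochberg adjusted p under 0.05. The deposited values carry no counts, so the sequencing depth behind them is unknown. Of the 88 genes, 19 overlap another gene in the reference annotation, among them the called genes ATG16L1, ATP6AP2, ATP6V0D2, ATP6V1A and VPS13A, and read strand is not given in the sources used here. Reads of such neighbours cannot be told apart. Means are given with the standard deviation (SD) over 3 libraries. Of the 88 genes, 85 were tested. The other 3 were too low: ATP6AP1L, a relative of an accessory protein of the pump, had 0.291, 0.177 and 0.382 FPKM in broody 1 to 3, against 0.0135, 0.0198 and 0.0292 FPKM in reproductive 1 to 3, ATP6V1B1 had at most 0.332 FPKM in any library, and CTSE at most 0.622.

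Both directions occurred among the genes. Proton pump genes, some autophagy genes and several VPS genes were higher in broody ovaries, while cathepsins K, S and C, LAMP2, LAMP3, GABARAPL1, VPS13A and 2 subunits of the pump were lower. Of the 85 tested genes, 30 rose (35.3%), where 29.9% of all tested genes rose, and 9 fell (10.6%), where 12.0% of all tested genes fell. Both shares lay near the background, so the counts over the whole set say little, and the classes are given apart. The 3 broody libraries lay wholly above the reproductive ones for 42 of the 85 genes (41.3% of all tested genes) and wholly below for 12 (18.2% of all tested genes). All 39 called genes had groups that did not overlap. The calls rest on the same values, so this adds no support of its own, and the share among all called genes was not counted. The median difference was 0.35, against 0.23 over all tested genes.

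The level of the whole libraries bears on the direction. Median-ratio scaling, which sets the typical gene equal between libraries, brought the median of all tested genes to 0.02. It left 17 genes higher (17.4% of all genes tested then rose) and 15 lower (18.4% fell), with all 9 falls and 17 of the 30 rises kept, and it added falls of CTSA, CTSB, CTSH, CTSZ, LAMP1 and VPS35L. When broody 1 was left out, and likewise broody 2, no member passed the threshold of the limma test, and of all tested genes 0 rose and 1 fell in each of these fits. The adjusted p of the 39 called genes then lay between 0.057 and 0.150 without broody 1 and between 0.0671 and 0.137 without broody 2. Of the 39 genes, 34 and 36 still had an unadjusted p under 0.05 in these fits. Each kept its sign, which groups that do not overlap fix in advance. Without broody 3, 17 rose and 6 fell, while of all tested genes 1842 rose and 1068 fell, against 3400 and 1366 with all libraries. Reproductive 2 had the lowest value of all 6 libraries for 47 of the 85 genes, and the share over all tested genes was not counted.

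**Figure D1:**
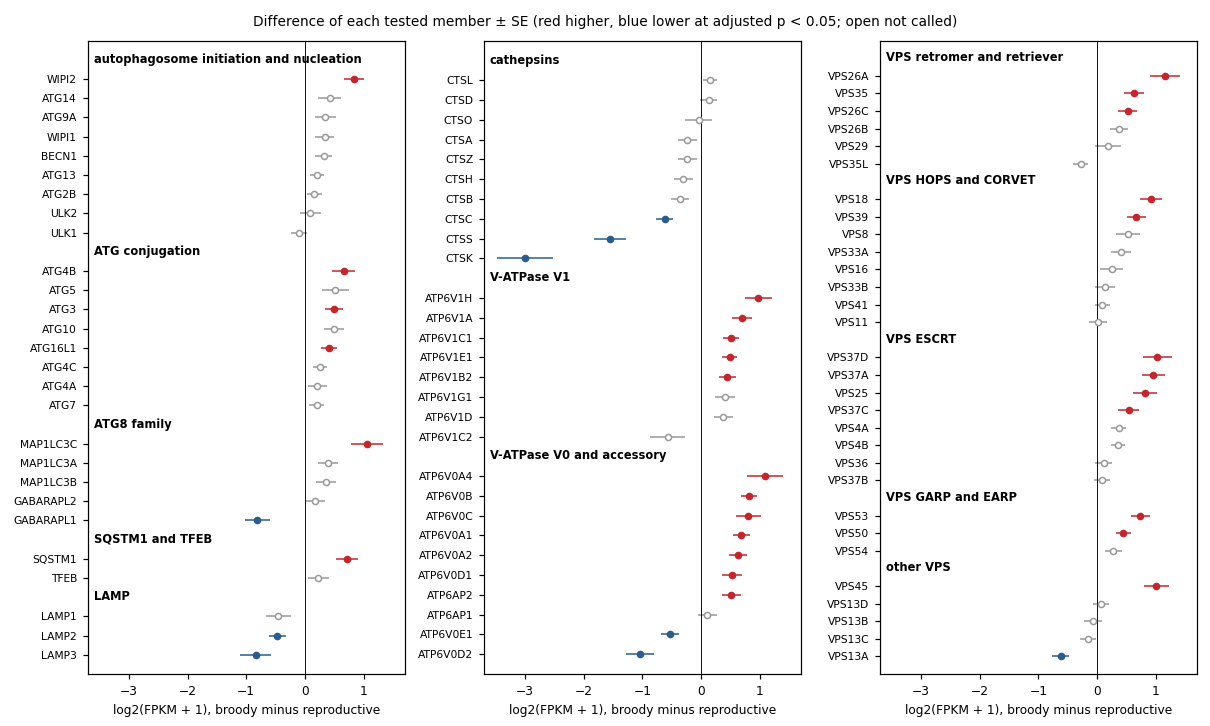
Difference of each of the 85 tested genes, broody minus reproductive on the log2(FPKM + 1) scale (x axis), with its SE, by class. Filled red points rose, filled blue points fell and open points did not pass the adjusted p threshold; CTSK lies farthest to the left at -3.00, and VPS26A farthest to the right at 1.16.

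Most genes of the V-ATPase were higher in broody ovaries. Of 18 tested subunits and accessory proteins, 12 rose (66.7%, against 29.9% of all tested genes) and 2 fell (11.1%, against 12.0%). The median difference was 0.51, against 0.23 over all genes. The summed level of these 18 genes was 1000, 990 and 873 FPKM in broody 1 to 3, against 770, 621 and 770 FPKM in reproductive 1 to 3. The sums of the groups did not overlap. With median-ratio scaling 7 rose and 2 fell, with a median of 0.28, where 17.4% of all genes tested rose and 18.4% fell. The counts were 0 without broody 1 or broody 2, 7 higher and 1 lower without broody 3, and 8 higher without reproductive 1 or reproductive 2. Of all tested genes 1842 rose and 1068 fell without broody 3, and 2283 and 2479 rose without reproductive 1 and reproductive 2. With the replicate number as a block in the fit, 4 of the 18 rose and 1 fell. That share of rises was near the one over all genes, where 2225 of 11377 rose and 948 fell.

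The V1 sector is the part of the pump in the cytosol that splits ATP. ATP6V1H, a regulatory subunit of V1, had 82.4, 71.6 and 66.9 FPKM in broody 1 to 3, against 46.2, 25.6 and 42.2 FPKM in reproductive 1 to 3. All broody values lay above all reproductive ones, and the difference was 0.98 ± 0.23 (limma adjusted p = 0.0194). ATP6V1A, the catalytic subunit, had 67.8, 64.0 and 62.3 FPKM in broody libraries, against 38.3, 32.2 and 49.3 FPKM in reproductive libraries. Its groups did not overlap either, and its difference was 0.70 ± 0.17 (limma adjusted p = 0.021). ATP6V1C1, a stator subunit, rose, with a difference of 0.51 on the log2 scale and 73.4, 73.7 and 61.0 FPKM in broody 1 to 3, against 51.2, 42.8 and 51.2 FPKM in reproductive 1 to 3. ATP6V1E1, a peripheral stalk subunit, averaged 34.1 ± 1.90 FPKM in broody and 24.0 ± 2.09 FPKM in reproductive libraries (difference 0.49), and ATP6V1B2, which sits beside the catalytic subunit, 62.0 ± 6.31 FPKM in broody and 45.0 ± 5.47 FPKM in reproductive libraries (difference 0.45; SD, n = 3 each). These 3 rises did not pass with median-ratio scaling, where their differences were 0.28, 0.26 and 0.22. ATP6V1D and ATP6V1G1 were also on the higher side without passing, with differences of 0.38 and 0.41. ATP6V1C2, the rarer C subunit, stood at 1.41 ± 0.783 FPKM in broody and 2.55 ± 1.10 FPKM in reproductive libraries and did not pass (limma adjusted p = 0.155).

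The V0 sector lies in the membrane and lets the protons through. ATP6V0C, which forms the ring of the rotor, had 118, 112 and 97.9 FPKM in broody 1 to 3, against 66.3, 45.0 and 79.3 FPKM in reproductive 1 to 3. The lowest broody library was above the highest reproductive one, and the difference was 0.81 ± 0.22 (limma adjusted p = 0.0252). ATP6V0B, a further ring subunit, had 37.6, 40.7 and 35.2 FPKM in broody libraries, against 23.0, 18.1 and 22.3 FPKM in reproductive libraries. The groups lay well apart, with a difference of 0.82 ± 0.14 (limma adjusted p = 0.0154). The a subunits, which carry the proton channel and steer the pump to its membrane, rose together. ATP6V0A1 averaged 49.4 ± 1.09 FPKM in broody and 30.4 ± 4.94 FPKM in reproductive libraries, ATP6V0A2 53.1 ± 4.86 FPKM in broody and 34.0 ± 5.26 FPKM in reproductive libraries, and ATP6V0A4, known in mammals from acid-secreting cells, 4.44 ± 1.66 FPKM in broody and 1.58 ± 0.788 FPKM in reproductive libraries (SD, n = 3 each). Their differences were 0.69, 0.63 and 1.09, and all 3 passed with median-ratio scaling too. ATP6V0D1, the common d subunit, rose by 0.53 and ATP6AP2, an accessory protein also known as the prorenin receptor, by 0.52, and neither passed with median-ratio scaling. ATP6AP1, an assembly factor, was not called (difference 0.11 ± 0.16, or -0.11 with median-ratio scaling).

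Both pump genes that fell belong to V0. ATP6V0D2, a d subunit that mammals use in osteoclasts, macrophages and some epithelia, had 2.27, 2.79 and 4.25 FPKM in broody 1 to 3, against 5.66, 9.24 and 7.33 FPKM in reproductive 1 to 3. All reproductive libraries were higher, and the difference was -1.04 ± 0.24 (limma adjusted p = 0.0188). ATP6V0E1, a small membrane subunit, had 101, 107 and 97.1 FPKM in broody libraries, against 175, 135 and 134 FPKM in reproductive libraries. Its groups did not overlap, with a difference of -0.53 ± 0.16 (limma adjusted p = 0.0326). The pair of d subunits therefore moved in opposite directions in the same libraries. ATP6V0D2 was 0.0527, 0.0750 and 0.121 times the FPKM of ATP6V0D1 in broody 1 to 3, against 0.239, 0.398 and 0.225 times in reproductive 1 to 3. ATP6V0E1 was 2.69 ± 0.0595 times the FPKM of ATP6V0B in broody and 7.03 ± 0.876 times in reproductive libraries (SD, n = 3 each). Such ratios are taken within a library, so a single scaling factor per library cannot move them. The 7 pairs shown were chosen after their values were seen and are given without a test.

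**Figure D2:**
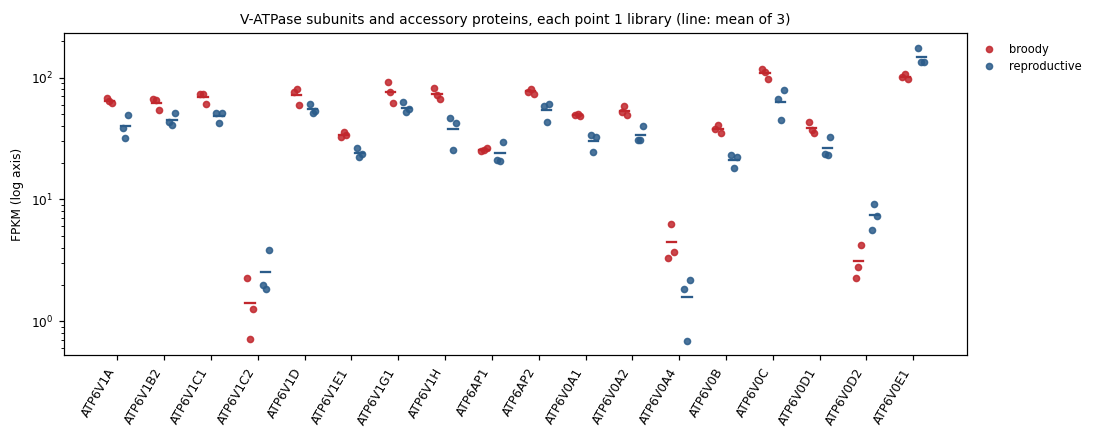
FPKM (log axis) of the 18 tested V-ATPase subunits and accessory proteins, V1 first and then V0 and accessory proteins; each point is 1 library, broody on the left and reproductive on the right of each gene, and the line is the mean of 3. ATP6V0D2 and ATP6V0E1 are the pump genes with all broody points below all reproductive points.

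Cathepsins K, S and C were lower in broody ovaries, and no cathepsin rose by the limma test. Of 10 tested, 3 fell (30.0%, against 12.0% of all tested genes) and 0 rose, and at an unadjusted p under 0.05 the counts were 4 lower and 0 higher. The median difference was -0.27, against 0.23 over all tested genes. With median-ratio scaling 7 of the 10 fell, where 18.4% of all genes tested fell, with a median of -0.50. The counts were 0 without broody 1 or broody 2, and 2 fell without broody 3, where CTSC did not pass and 1068 of all tested genes fell.

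CTSK, a collagen-cutting cysteine protease best known from the osteoclasts of mammals, had the largest difference of all 85 genes. It had 9.12, 13.5 and 34.8 FPKM in broody 1 to 3, against 88.9, 194 and 153 FPKM in reproductive 1 to 3. The groups did not overlap, broody 3 was the highest broody library and reproductive 2 the highest reproductive one. The difference was -3.00 ± 0.48 (limma adjusted p = 0.0134), and the reproductive mean was 7.59 times the broody mean. CTSS, a cysteine protease that prepares antigens for MHC class II in immune cells, had 13.8, 11.7 and 19.4 FPKM in broody libraries, against 30.5, 47.8 and 62.1 FPKM in reproductive libraries. Again every reproductive library was higher, and the difference was -1.55 ± 0.28 (limma adjusted p = 0.0159). CTSC, which activates serine proteases of granulocytes and lymphocytes, had 65.8, 70.9 and 66.4 FPKM in broody libraries, against 114, 88.2 and 114 FPKM in reproductive libraries. Its broody values were close together and below all reproductive ones, with a difference of -0.62 ± 0.15 (limma adjusted p = 0.0201).

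The other cathepsins moved less. CTSB, a broad cysteine protease, had 149, 135 and 141 FPKM in broody 1 to 3, against 161, 209 and 181 FPKM in reproductive 1 to 3. The groups did not overlap, but the difference of -0.36 ± 0.15 missed the threshold (limma adjusted p = 0.0868), and passed with median-ratio scaling (difference -0.60, limma adjusted p = 0.0309). CTSH, an aminopeptidase, had 26.8, 22.7 and 28.6 FPKM in broody libraries, against 29.7, 28.9 and 38.6 FPKM in reproductive libraries, with a difference of -0.30. CTSZ, a carboxypeptidase, had 105, 101 and 87.0 FPKM in broody libraries, against 97.8, 119 and 127 FPKM in reproductive libraries, with a difference of -0.23. CTSA, a serine carboxypeptidase that also protects other lysosomal enzymes, had 41.2, 34.1 and 40.0 FPKM in broody libraries, against 37.9, 45.0 and 54.0 FPKM in reproductive libraries, with a difference of -0.23. CTSH did not overlap between the groups, and CTSZ and CTSA did. None of these 3 passed unscaled, and each passed as lower with median-ratio scaling, at -0.53, -0.46 and -0.47.

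CTSD, the aspartic protease that starts yolk protein cleavage in the chicken oocyte, had 145, 116 and 137 FPKM in broody 1 to 3, against 122, 109 and 132 FPKM in reproductive 1 to 3. The groups overlapped, and the difference of 0.13 ± 0.15 did not pass (limma adjusted p = 0.508) and turned to -0.11 with median-ratio scaling. CTSL, a widely expressed cysteine protease, had 78.7, 72.0 and 71.0 FPKM in broody libraries, against 70.4, 62.8 and 66.7 FPKM in reproductive libraries. Broody libraries lay just above the reproductive ones, with a difference of 0.15 ± 0.12 that did not pass (limma adjusted p = 0.354) and turned to -0.09 with median-ratio scaling. CTSO, a little-studied relative, had 7.85, 8.82 and 10.7 FPKM in broody libraries, against 6.86, 9.31 and 12.7 FPKM in reproductive libraries, with a difference of -0.04 and overlapping groups. Relative to CTSD in the same library, CTSK stood at 0.0628, 0.116 and 0.255 times in broody 1 to 3, against 0.731, 1.77 and 1.16 times in reproductive 1 to 3. CTSK was thus above CTSD in reproductive 2 and 3 and far below it in each broody library. CTSS stood at 0.204 ± 0.0604 times CTSL in broody and 0.708 ± 0.253 times in reproductive libraries (SD, n = 3 each). The order of the cathepsins by mean FPKM was CTSB, CTSD, CTSZ, CTSL and CTSC in broody ovaries, and only CTSB and CTSD of these had ranges that overlapped a neighbour. In reproductive ovaries the order was CTSB, CTSK, CTSD, CTSZ and CTSC, and the range of CTSK overlapped those of the other 4.

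LAMP genes, which code for the heavily glycosylated coat of the lysosomal membrane, were on the lower side. Of 3 tested, 2 fell (12.0% of all tested genes fell) and 0 rose (29.9% of all tested genes rose). LAMP2, which also serves chaperone-mediated autophagy, had 118, 127 and 140 FPKM in broody 1 to 3, against 169, 171 and 194 FPKM in reproductive 1 to 3. The groups did not overlap, and the difference was -0.47 ± 0.14 (limma adjusted p = 0.0365). LAMP1 had 190, 190 and 196 FPKM in broody libraries, against 195, 293 and 318 FPKM in reproductive libraries. Reproductive 1 lay within the broody range, and the difference of -0.45 ± 0.21 did not pass (limma adjusted p = 0.114), whereas it passed with median-ratio scaling (-0.69, limma adjusted p = 0.0354) and without reproductive 1. LAMP3, known in mammals from mature dendritic cells, had 2.08, 1.83 and 3.20 FPKM in broody libraries, against 3.95, 7.58 and 3.97 FPKM in reproductive libraries. It fell by 0.84 with groups that did not overlap (limma adjusted p = 0.0401). Without broody 1 or broody 2 neither LAMP2 nor LAMP3 passed, without broody 3 or reproductive 3 LAMP3 alone passed, without reproductive 2 LAMP2 alone did, and without reproductive 1 neither. Neither passed with only the transcript of highest mean kept for each gene. LAMP3 has 1 transcript, so its own values were the same there and only the fit over other genes differed.

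The table lists 6 transcripts of LAMP2, and 2 of them carried most of its level. The most abundant had 87.2, 94.1 and 95.9 FPKM in broody 1 to 3, against 111, 93.8 and 114 FPKM in reproductive 1 to 3, and these values overlapped. The next one had 28.9, 31.4 and 41.7 FPKM in broody libraries, against 54.6, 72.3 and 77.0 FPKM in reproductive libraries, and these did not. Its share of LAMP2 was 26.3 ± 2.95% in broody and 38.1 ± 5.24% in reproductive libraries (SD, n = 3 each). The transcripts were looked at after their values were seen and the split of reads between them is the estimate of the authors' quantifier, so no test is given.

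**Figure D3:**
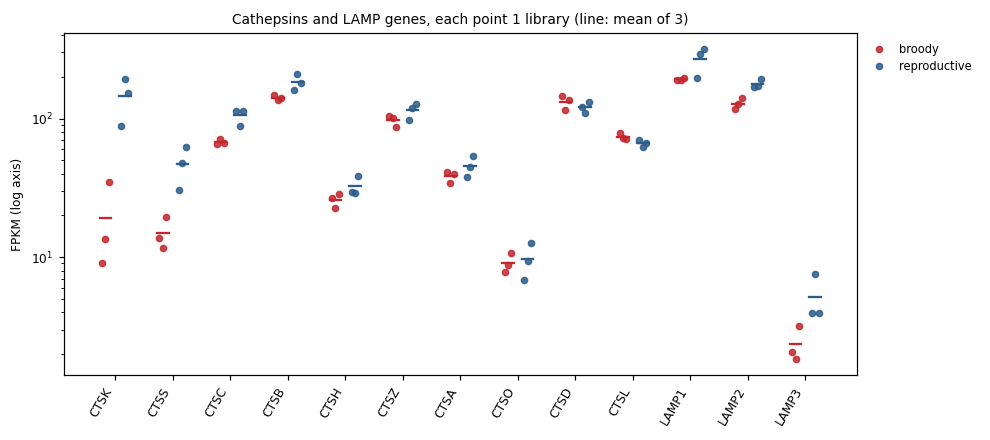
FPKM (log axis) of the 10 tested cathepsins and of LAMP1 to LAMP3; each point is 1 library, broody left and reproductive right of each gene, and the line is the mean of 3. CTSK shows the widest gap between the groups, with 9.12 to 34.8 FPKM in broody and 88.9 to 194 FPKM in reproductive libraries, while CTSD and CTSL sit close together.

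Markers of macrophages and granulocytes were lower in broody ovaries, as CTSK, CTSS and ATP6V0D2 were. All 11 tested of 12 found fell, where 12.0% of all tested genes fell. The summed level of the list was 237 to 413 FPKM in broody libraries, against 570 to 1045 FPKM in reproductive libraries. CD74 alone, with 175 to 304 FPKM in broody and 347 to 773 FPKM in reproductive libraries, made up most of each sum. Within the broody group broody 3 had the highest sum. It also had the highest CTSK, CTSS, ATP6V0D2, LAMP2, LAMP3, GABARAPL1 and VPS13A of that group, but not the highest CTSC or ATP6V0E1. CTSK in broody 1 was 0.262 times its value in broody 3. This ratio was 0.713 for CTSS, 0.533 for ATP6V0D2, and 0.645, 0.757 and 0.621 for the markers MPEG1, SPI1 and CSF1R. In the reproductive group CTSK, ATP6V0D2 and CSF1R were highest in reproductive 2, whereas CTSS, MPEG1 and SPI1 were highest in reproductive 3. CSF1R, the receptor of macrophage colony-stimulating factor, had 14.9, 11.3 and 24.0 FPKM in broody 1 to 3, against 32.6, 61.1 and 47.5 FPKM in reproductive 1 to 3, so the markers were low but not at 0 in broody ovaries. Smooth muscle markers fell for 9 of 9 tested genes, with sums of 389 to 1108 FPKM in broody and 3566 to 7885 FPKM in reproductive libraries. Here too broody 3 had the highest broody sum. Theca and stroma markers fell for 6 of 10, with sums of 374 to 991 FPKM in broody and 1943 to 2412 FPKM in reproductive libraries, and again broody 3 had the highest broody sum. The 6 were HSD3B1, DCN, COL1A1, COL1A2, COL3A1 and NR2F2. CYP17A1, CYP11A1, STAR and PDGFRA overlapped between the groups and were not called (limma adjusted p = 0.742, 0.362, 0.774 and 0.0593). COL3A1 alone had 64.4 to 254 FPKM in broody and 743 to 1316 FPKM in reproductive libraries. The part of these cell types in the cathepsin values was not tested. In bulk tissue, fewer cells of a type and less RNA per cell cannot be told apart.

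Oocyte and germ cell markers went the way of the V-ATPase genes. All 12 tested of 13 found rose, with summed levels of 1425 to 1631 FPKM in broody libraries, against 184 to 774 FPKM in reproductive libraries. Over all tested genes, 29.9% rose and 12.0% fell. Reproductive 2 had the lowest sum, and it was the lowest reproductive library for 16 of the 18 V-ATPase genes. It was also the lowest reproductive library for 51 of all 85 tested members, and the share over all tested genes was not counted. The broody group did not show this order. Broody 3 had its highest oocyte and germ cell sum, at 1631 FPKM, but its lowest V-ATPase sum, at 873 FPKM. Among granulosa markers 2 of 7 rose and 1 fell, with sums of 522 to 668 FPKM in broody and 260 to 405 FPKM in reproductive libraries. AMH and FOXL2 rose and INHBA fell, and AMH alone had 202 to 295 FPKM in broody and 53.4 to 64.5 FPKM in reproductive libraries. FSHR, CYP19A1, GJA1 and FST overlapped between the groups and were not called. Endothelial markers rose for 2 and fell for 7 of 10 tested, with sums of 283 to 341 FPKM in broody and 286 to 308 FPKM in reproductive libraries. EMCN, 1 of the 2 that rose, made up most of each broody sum. It had 174, 227 and 180 FPKM in broody 1 to 3, against 89.1, 60.6 and 101 FPKM in reproductive 1 to 3. Of 11 red blood cell symbols only SLC4A1 was found, at 0.123 to 0.256 FPKM in broody and 0.479 to 2.29 FPKM in reproductive libraries. The other symbols were absent from the gene names, so their levels are unknown. The part of these cells in the pump values was not tested.

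The autophagy genes proper rose in part. Of 24 tested, 6 rose (25.0%, against 29.9% of all tested genes) and 1 fell (4.17%, against 12.0%), with a median difference of 0.35. With median-ratio scaling 2 rose and 1 fell, with a median of 0.13, where 17.4% of all genes tested rose and 18.4% fell. No count was left without broody 1 or broody 2, and without broody 3 only WIPI2 rose and GABARAPL1 fell. The share of called genes was thus near or below the background.

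Among the genes that start and extend the autophagosome, 1 of 9 rose (11.1%, against 29.9% of all tested genes). WIPI2, which reads the lipid signal on the growing membrane and brings in ATG16L1, had 91.9, 86.2 and 83.1 FPKM in broody 1 to 3, against 48.0, 39.6 and 59.2 FPKM in reproductive 1 to 3. The groups lay far apart, and the difference was 0.84 ± 0.17 (limma adjusted p = 0.0172). ULK1, the kinase that starts autophagy, had 5.16 ± 0.306 FPKM in broody and 5.59 ± 0.529 FPKM in reproductive libraries, with a difference of -0.10 ± 0.14. ULK2, its paralog, had 19.7, 19.1 and 22.2 FPKM in broody libraries, against 14.8, 19.8 and 23.6 FPKM in reproductive libraries, with a difference of 0.09 ± 0.18. Both overlapped between the groups and did not pass (limma adjusted p = 0.612 and 0.725). BECN1, beclin of the lipid kinase complex, had 21.2, 15.8 and 19.4 FPKM in broody libraries, against 15.8, 14.6 and 14.0 FPKM in reproductive libraries. The groups met at 15.8 FPKM, and the difference of 0.32 ± 0.15 did not pass (limma adjusted p = 0.119). ATG13, ATG14, ATG2B, ATG9A and WIPI1 had differences of 0.16 to 0.42 that did not pass, and those of ATG13, ATG2B and ULK2 turned below 0 with median-ratio scaling.

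In the conjugation chain 3 of 8 genes rose (37.5%, near the 29.9% of all tested genes), and all 8 differences were above 0 (6 with median-ratio scaling). The median difference of the chain was 0.45, against 0.23 over all tested genes, or 0.22 against 0.02 with that scaling. ATG4B, the protease that trims ATG8 proteins, had 47.7, 42.3 and 39.9 FPKM in broody 1 to 3, against 29.9, 20.5 and 32.3 FPKM in reproductive 1 to 3, a difference of 0.66 ± 0.19 (limma adjusted p = 0.0306). ATG3, the enzyme that hands ATG8 to its lipid, had 76.2, 74.0 and 65.5 FPKM in broody libraries, against 45.9, 47.0 and 59.6 FPKM in reproductive libraries, a difference of 0.50 ± 0.15 (limma adjusted p = 0.0345). ATG16L1, which places the chain on the membrane, had 34.6, 34.2 and 31.4 FPKM in broody libraries, against 27.0, 21.7 and 26.3 FPKM in reproductive libraries, a difference of 0.41 ± 0.14 (limma adjusted p = 0.0462). For each of the 3, every broody library lay above every reproductive one, as for 41.3% of all tested genes. None passed with median-ratio scaling or without broody 3. ATG5, ATG7, ATG10, ATG4A and ATG4C were not called, with differences of 0.20 to 0.52.

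Of the ATG8 proteins, the small ubiquitin-like proteins that mark the autophagosome, 1 rose and 1 fell among 5 (20.0% each way, against 29.9% and 12.0% of all tested genes). MAP1LC3C had 41.0, 37.3 and 47.5 FPKM in broody 1 to 3, against 24.6, 12.3 and 24.3 FPKM in reproductive 1 to 3. The groups did not overlap, and the difference was 1.06 ± 0.27 (limma adjusted p = 0.0219). GABARAPL1, a member of the GABARAP branch, had 26.7, 28.5 and 34.1 FPKM in broody libraries, against 42.0, 71.2 and 48.5 FPKM in reproductive libraries. Here every reproductive library was higher, and the difference was -0.81 ± 0.21 (limma adjusted p = 0.024). Both calls held with each scaling, MAP1LC3C did not pass without broody 3, and neither passed without broody 1 or broody 2. With only the transcript of highest mean kept for each gene, MAP1LC3C passed and GABARAPL1 did not. MAP1LC3A had 65.8, 57.3 and 64.5 FPKM in broody libraries, against 41.2, 59.9 and 42.1 FPKM in reproductive libraries, and MAP1LC3B 58.3, 53.2 and 40.4 FPKM in broody libraries, against 36.4, 36.8 and 43.8 FPKM in reproductive libraries. Both overlapped between the groups, with differences of 0.40 and 0.36 that did not pass. GABARAPL2 had 13.8, 12.7 and 11.4 FPKM in broody libraries, against 12.8, 9.42 and 11.0 FPKM in reproductive libraries, a difference of 0.18 with overlapping groups that turned to -0.04 with median-ratio scaling. GABARAPL1 was 1.93, 2.25 and 2.99 times GABARAPL2 in broody 1 to 3, against 3.29, 7.57 and 4.40 times in reproductive 1 to 3.

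SQSTM1, also called p62, ties ubiquitin-marked cargo to ATG8 proteins and is itself degraded by autophagy. It had 222, 209 and 238 FPKM in broody 1 to 3, against 107, 140 and 162 FPKM in reproductive 1 to 3. All broody libraries were higher, and the difference was 0.72 ± 0.19 (limma adjusted p = 0.0229), which was 0.49 with median-ratio scaling and did not pass there (limma adjusted p = 0.0557), nor without broody 1, 2 or 3. TFEB, the transcription factor that turns on lysosome genes, had 2.90, 3.73 and 2.95 FPKM in broody libraries, against 2.02, 2.65 and 3.12 FPKM in reproductive libraries. Its groups overlapped, and the difference of 0.23 ± 0.18 did not pass (limma adjusted p = 0.321). TFEB was the lowest of these autophagy genes in broody libraries. Its activity is set by phosphorylation, which was not measured here.

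VPS genes of the sorting complexes were mostly on the higher side. Of the 25 tested in retromer, retriever, HOPS, CORVET, ESCRT, GARP and EARP, 11 rose (44.0%, against 29.9% of all tested genes). VPS33B, a paralog of the HOPS and CORVET subunit VPS33A, was counted among the 25. The count that fell was 0 (12.0% of all tested genes fell), also at an unadjusted p under 0.05. The median difference was 0.41. With median-ratio scaling 7 rose and 1 fell (VPS35L), with a median of 0.18, where 17.4% of all genes tested rose and 18.4% fell. The 11 rises became 0 without broody 1 or broody 2, and 8 each without broody 3, reproductive 1 or reproductive 2. Of all tested genes 1842, 2283 and 2479 rose in these last 3 fits, against 3400 with all libraries.

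Retromer returns sorting receptors from endosomes to the Golgi. VPS26A, one of its core subunits, had 109, 114 and 80.7 FPKM in broody 1 to 3, against 47.8, 30.7 and 58.4 FPKM in reproductive 1 to 3. Each broody library lay above each reproductive one, and the difference was 1.16 ± 0.25 (limma adjusted p = 0.0182), the largest rise of the 85 genes on the log2(FPKM + 1) scale. By the ratio of broody to reproductive means, ATP6V0A4 (2.81) and VPS37D (2.30), both at lower FPKM, rose more than VPS26A (2.22). VPS35, the scaffold of retromer, had 143, 159 and 118 FPKM in broody libraries, against 88.6, 79.1 and 102 FPKM in reproductive libraries. The groups did not overlap, and the difference was 0.63 ± 0.17 (limma adjusted p = 0.0247), or 0.40 with median-ratio scaling, where it did not pass. VPS29, the third core subunit, had 51.1, 47.8 and 44.2 FPKM in broody libraries, against 57.0, 30.8 and 42.1 FPKM in reproductive libraries, with overlapping groups and a difference of 0.18 ± 0.22, or -0.05 with median-ratio scaling. VPS26A was 2.11 ± 0.280 times VPS29 in broody and 1.08 ± 0.284 times in reproductive libraries (SD, n = 3 each). VPS26B, the paralog of VPS26A, was not called (difference 0.37). In retriever, the sister complex that recycles cargo to the cell surface, VPS26C rose by 0.52 (0.30 with median-ratio scaling, where it did not pass) while VPS35L was at 26.6 ± 1.89 FPKM in broody and 32.6 ± 3.20 FPKM in reproductive libraries (SD, n = 3 each). VPS35L did not pass unscaled (limma adjusted p = 0.121) and fell with median-ratio scaling (-0.51, limma adjusted p = 0.0299), and its groups did not overlap.

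HOPS and CORVET tether endosomes and lysosomes before they fuse. VPS18, a core subunit of both, had 70.8, 74.9 and 61.8 FPKM in broody 1 to 3, against 34.7, 29.4 and 45.7 FPKM in reproductive 1 to 3. The groups lay apart, and the difference was 0.92 ± 0.18 (limma adjusted p = 0.0172). VPS39, the HOPS subunit that binds RAB7, had 33.0, 34.4 and 30.8 FPKM in broody libraries, against 20.1, 16.7 and 24.6 FPKM in reproductive libraries, a difference of 0.67 ± 0.16 (limma adjusted p = 0.0208) with groups that did not overlap. The remaining 6 genes were not called, so 2 of 8 rose (25.0%, against 29.9% of all tested genes). The 8 include VPS33B, a paralog of VPS33A that is not itself a subunit of HOPS or CORVET. VPS11 stood at 29.1 ± 4.28 FPKM in broody and 28.6 ± 2.48 FPKM in reproductive libraries (SD, n = 3 each), a difference of 0.02 that turned to -0.21 with median-ratio scaling, and VPS16, VPS33A, VPS33B, VPS41 and VPS8 had differences of 0.09 to 0.53 that did not pass. VPS18 was 2.43 ± 0.589 times VPS11 in broody and 1.28 ± 0.289 times in reproductive libraries (SD, n = 3 each).

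ESCRT complexes bud vesicles into the endosome and seal the autophagosome. Of 8 tested VPS genes of ESCRT, 4 rose, where 29.9% of all tested genes rose. VPS37A, an ESCRT-I subunit, had 86.4, 84.2 and 82.2 FPKM in broody 1 to 3, against 40.0, 34.5 and 56.8 FPKM in reproductive 1 to 3. Broody values were nearly equal and above all reproductive ones, with a difference of 0.96 ± 0.19 (limma adjusted p = 0.0172). Its paralog VPS37D, at a much lower level, had 8.84, 6.41 and 7.98 FPKM in broody libraries, against 2.88, 2.35 and 4.87 FPKM in reproductive libraries, a difference of 1.03 ± 0.24 with no overlap. VPS37C rose by 0.54, with an adjusted p by limma of 0.0492 that did not pass with median-ratio scaling. VPS37B, the remaining paralog, had 22.1 ± 1.37 FPKM in broody and 20.9 ± 2.50 FPKM in reproductive libraries and was not called. VPS25, of ESCRT-II, had 50.1, 47.5 and 34.3 FPKM in broody libraries, against 27.9, 18.8 and 26.8 FPKM in reproductive libraries, a difference of 0.82 ± 0.21 (limma adjusted p = 0.0229) with no overlap. VPS4A and VPS4B, the ATPases that take ESCRT apart, had differences of 0.37 and 0.35 with no overlap, and just missed the threshold (limma adjusted p = 0.055 and 0.0551). VPS36 was not called (difference 0.11, or -0.12 with median-ratio scaling).

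GARP and EARP tether vesicles returning to the Golgi and to recycling endosomes. VPS53, shared by both, had 35.1, 35.3 and 33.6 FPKM in broody 1 to 3, against 20.9, 16.2 and 25.1 FPKM in reproductive 1 to 3, a difference of 0.74 ± 0.17 (limma adjusted p = 0.0193). VPS50, the EARP subunit, rose by 0.45, and VPS54, the GARP subunit, was not called (difference 0.28). All 3 had every broody library above every reproductive one, as 41.3% of all tested genes had. Only VPS53 passed with median-ratio scaling.

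Of the other VPS genes, VPS45 and VPS13A moved in opposite directions. VPS45, which guides fusion at early endosomes and the Golgi, had 56.2, 50.7 and 43.3 FPKM in broody 1 to 3, against 21.7, 19.9 and 32.6 FPKM in reproductive 1 to 3. The difference was 1.01 ± 0.21 (limma adjusted p = 0.0172). VPS13A, which moves lipids between membranes, had 8.24, 7.92 and 9.94 FPKM in broody libraries, against 13.2, 15.0 and 13.3 FPKM in reproductive libraries, a difference of -0.62 ± 0.15 (limma adjusted p = 0.0197). Neither gene overlapped between the groups, both passed with each scaling, and neither passed without broody 1 or broody 2. The other VPS13 paralogs, VPS13B, VPS13C and VPS13D, had differences of -0.15 to 0.07 and were not called, with VPS13D at -0.16 with median-ratio scaling.

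**Figure D4:**
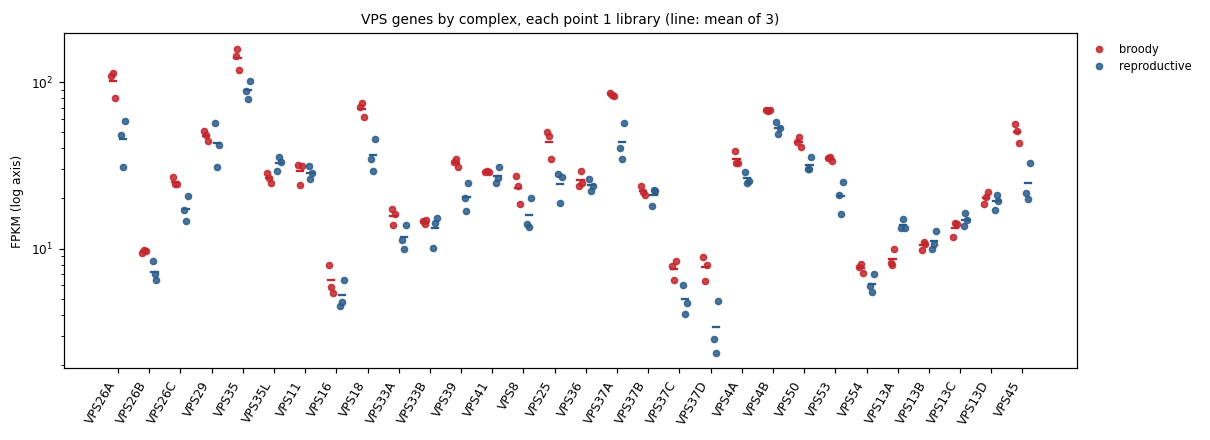
FPKM (log axis) of the 30 VPS genes, in the order retromer and retriever, HOPS and CORVET, ESCRT, GARP and EARP, and others; each point is 1 library, broody left and reproductive right of each gene, and the line is the mean of 3. VPS26A, VPS18, VPS37A and VPS53 are among the genes whose groups separate fully, and VPS29, VPS11 and VPS36 among those whose groups overlap.

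**Figure D5:**
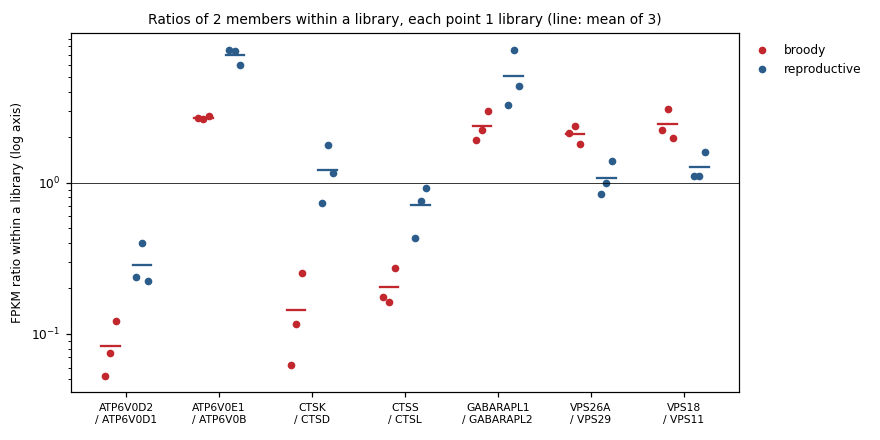
Ratio of the FPKM of 2 members within the same library (log axis) for 7 pairs chosen after their values were seen; each point is 1 library, broody left and reproductive right of each pair, and the line is the mean of 3. The ratios to ATP6V0D1, ATP6V0B, CTSD, CTSL and GABARAPL2 were lower in each broody library than in any reproductive one, and those of VPS26A to VPS29 and VPS18 to VPS11 were higher.

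The rest of the pathway was read from 6 lists. Of 43 tested lysosomal enzymes and membrane proteins other than cathepsins, 7 rose (16.3%, against 29.9% of all tested genes) and 6 fell (14.0%, against 12.0%), with a median difference of 0.15. With median-ratio scaling 3 rose and 11 fell, with a median of -0.07, where 17.4% of all genes tested rose and 18.4% fell. NPC1, which exports cholesterol from the lysosome, had 297, 315 and 226 FPKM in broody 1 to 3, against 112, 74.5 and 133 FPKM in reproductive 1 to 3, a difference of 1.41 ± 0.24 (limma adjusted p = 0.0154). NAGLU, an enzyme of heparan sulfate breakdown, rose by 0.91 and CTNS, the cystine exporter, by 0.86, which did not pass with median-ratio scaling. The genes that fell most were LAPTM4B, a lysosomal membrane protein, at 2.12 ± 0.404 FPKM in broody and 6.33 ± 1.91 FPKM in reproductive libraries (difference -1.21), ARSA, a sulfatase (difference -0.87), and AGA, which splits sugars from asparagine (difference -0.82; SD, n = 3 each). The lysosome outside the pump thus held both directions.

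Of 26 tested genes that sort enzymes to the lysosome, 11 rose (42.3%, against 29.9% of all tested genes) and 1 fell (3.85%, against 12.0%), with a median of 0.33. With median-ratio scaling 8 rose and 4 fell, where 17.4% of all tested genes rose and 18.4% fell. SNX5, a sorting nexin that works with retromer, had 367, 431 and 291 FPKM in broody 1 to 3, against 137, 109 and 204 FPKM in reproductive 1 to 3. SNX1, its partner, had 496, 525 and 414 FPKM in broody libraries, against 197, 162 and 311 FPKM in reproductive libraries. Both separated fully, with differences of 1.30 ± 0.26 and 1.14 ± 0.26 (limma adjusted p = 0.0172 and 0.0186). IGF2R, the large mannose 6-phosphate receptor that retromer returns to the Golgi, rose, with a difference of 0.75 and 94.7 ± 11.5 FPKM in broody, against 55.7 ± 2.97 FPKM in reproductive libraries. AP3B1, of the adaptor that serves lysosome-related organelles, fell, with a difference of -0.64.

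Of 16 tested genes of other autophagy machinery, 7 rose (43.8%, against 29.9% of all tested genes) and 1 fell (6.25%, against 12.0%), with a median of 0.15, below the 0.23 over all tested genes. With median-ratio scaling 3 rose and 2 fell, with a median of -0.07, where 17.4% of all genes tested rose and 18.4% fell. UVRAG and PIK3R4, partners of beclin in its lipid kinase complex, rose by 1.04 and 0.81, and RAB7A, the GTPase of late endosomes, by 0.77. VMP1, a lipid scramblase needed for the autophagosome, fell, with a difference of -0.58 and 53.2 ± 3.31 FPKM in broody, against 80.1 ± 8.55 FPKM in reproductive libraries (SD, n = 3 each). Its level was assigned to different transcripts in different libraries, and the transcript with the highest mean alone gave a difference of 3.47 that did not pass. Of 14 selective autophagy receptors, 3 rose (21.4%, against 29.9% of all tested genes) and 1 fell (7.14%, against 12.0%), with a median of 0.28, or 1 and 3 with median-ratio scaling. OPTN, optineurin, rose, with a difference of 0.86 and 207, 217 and 164 FPKM in broody 1 to 3, against 100, 92.1 and 132 FPKM in reproductive 1 to 3. STBD1, which binds glycogen, rose by 0.70 and PHB2, a mitochondrial receptor, by 0.68, neither of which passed with median-ratio scaling, and WDFY3, a scaffold for protein aggregates, fell, with a difference of -0.44.

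Of 31 tested genes of mTORC1, AMPK and the TFE factors, which switch autophagy off and on, 9 rose (29.0%, at the background of 29.9% of all tested genes) and 2 fell (6.45%, against 12.0%), with a median of 0.27, near the 0.23 over all tested genes. With median-ratio scaling 6 rose and 3 fell, where 17.4% of all genes tested rose and 18.4% fell. RRAGC, a Rag GTPase, and LAMTOR3, of the Ragulator that holds it on the lysosome, rose by 1.13 and 1.03. DAPK1, a kinase that acts on beclin, rose by 1.03. DEPTOR, an inhibitor of mTOR, had 14.8, 10.5 and 15.6 FPKM in broody 1 to 3, against 22.0, 27.8 and 30.0 FPKM in reproductive 1 to 3, a difference of -0.92 ± 0.19 (limma adjusted p = 0.0176). TFEC, the TFE factor known in mammals from macrophages, had 0.619, 0.963 and 0.792 FPKM in broody libraries. In reproductive libraries it had 1.96, 2.44 and 2.77 FPKM, a difference of -0.92 ± 0.17 (limma adjusted p = 0.0158). No broody value reached 1 FPKM, so TFEC passed the filter only through its reproductive libraries. A gene that enters in this way can only be lower in broody libraries, so its direction adds no support. TFEB, its relative among the 88 genes, was not called. Of the cathepsin inhibitors, 2 of 6 found were tested: KNG1, kininogen, rose by 1.53 and A2M, a broad protease trap, fell, with a difference of -1.20. None of the genes called in these lists passed without broody 1 or without broody 2.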

How the data were processed

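Ovary RNA was sequenced in 3 broody and 3 reproductive libraries, and groups were taken from the labels. The authors deposited FPKM per transcript, made with HISAT2 and StringTie per the submitters' processing notes, with genome build, annotation, versions and strand not given in the sources used here. FPKM of the 33089 transcripts were summed to 14696 genes. Names came from the deposited table for 6611 genes and, by gene ID, from a RefSeq table of a goose assembly (used for names and neighbours only) for 5742, and 2343 had none. Genes with at least 1 FPKM in 3 of 6 libraries were tested on log2(FPKM + 1) with limma 3.58.1 (R 4.3.3, mean-variance trend), without a block, with Benjamini-Hochberg adjustment over all tested genes at 0.05. The script was tested on simulated data. The members, the lists and the genes named (fixed members, the largest differences in each class, and the most changed called genes of each pathway list) were chosen with earlier results of these data known. Alternatives changed the pseudocount, the filter, the scaling, the transcript summary, the trend, a replicate block and each library. Library totals of FPKM were 319866 to 346625, and no counts or whole reads were available, so no count test was run.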

Additional observations from a re-analysis of the deposited data

How the results depend on the processing

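Without a count of reads the precision of low FPKM is unknown. Of the 39 calls, 0 passed without broody 1 or broody 2, 23 without broody 3, and 27, 29 and 36 without reproductive 1, 2 and 3. All 39 calls kept their sign under all 16 alternatives. As their groups did not overlap, leaving out a library or changing the pseudocount could not change a sign. Nor could the filter, the trend or the replicate block, so only the scalings and the highest transcript could have. The labels give replicate numbers but state no pairing. Deviations of same-numbered libraries from their group means correlated with r = 0.11, -0.158 and -0.203, and broody 3 correlated best with reproductive 2 (0.291). Deviations from a mean of 3 libraries sum to 0, so these values are tied together and cannot exclude a pairing. The replicate block gave 14 members higher and 5 lower, and 2225 of all genes higher. Leaving out 1 library gave 0 to 33 members higher, 0 to 8 lower, 0 to 3773 of all genes higher and 1 to 1152 lower. Members higher numbered 17, 17 and 19 and members lower 15, 15 and 14 with scaling by median ratio, upper quartile and quantiles. All genes higher numbered 1984, 1965 and 2198, and lower 2090 and 2108 with the first and second of these. The highest transcript alone gave 2180 genes higher.

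In the same order of scalings, class medians were 0.10, 0.09 and 0.10 for initiation, 0.22, 0.22 and 0.19 for conjugation, 0.13, 0.12 and 0.10 for ATG8, 0.27 and 0.27 for SQSTM1 and TFEB, -0.70, -0.71 and -0.62 for LAMP, -0.50 in each for cathepsins, 0.24, 0.24 and 0.21 for V1, 0.35, 0.35 and 0.32 for V0, 0.23, 0.22 and 0.25 for retromer and retriever, 0.24, 0.24 and 0.25 for ESCRT, 0.22, 0.21 and 0.18 for GARP and EARP, and -0.29, -0.30 and -0.26 for other VPS. HOPS and CORVET had 0.11 with upper-quartile scaling, and ESCRT 0.60 with the highest transcript. List medians were -0.07, -0.08 and -0.05 for lysosomal proteins and also for other autophagy machinery (0.35 with the highest transcript), 0.11, 0.10 and 0.14 for sorting, 0.05 in each for receptors, and 0.07, 0.06 and 0.08 for mTORC1 control. Leaving out 1 library, class medians spanned 0.21 to 0.33 for initiation, 0.30 to 0.51 for conjugation, 0.25 to 0.38 for ATG8, 0.33 to 0.60 for SQSTM1 and TFEB, -0.67 to -0.40 for LAMP, -0.36 to -0.16 for cathepsins, 0.41 to 0.54 for V1, 0.50 to 0.72 for V0, 0.38 to 0.49 for retromer and retriever, 0.23 to 0.45 for HOPS and CORVET, 0.38 to 0.55 for ESCRT, 0.40 to 0.52 for GARP and EARP, and -0.14 to 0.02 for other VPS. List medians spanned 0.05 to 0.26 for lysosomal proteins, 0.20 to 0.45 for sorting, 0.10 to 0.22 for other machinery, 0.20 to 0.35 for receptors, 0.25 to 0.35 for mTORC1 control and -0.17 to 0.41 for the 2 inhibitors, whose median was -0.02, -0.03 and -0.01 by scaling, -0.22 with the highest transcript and 0.00 with no filter.

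Sign changes were limited to genes that were not called, apart from VMP1 (3.47 with the highest transcript). With the 3 scalings in that order, the differences turned to -0.03, -0.03 and -0.05 for ATG13, -0.07, -0.07 and -0.10 for ATG2B, -0.02, -0.03 and -0.06 for ATG4A, -0.03, -0.03 and -0.02 for ATG7, -0.11, -0.12 and -0.12 for ATP6AP1, -0.11, -0.11 and -0.07 for CTSD, -0.09 in each for CTSL, -0.04, -0.04 and -0.02 for GABARAPL2, -0.14, -0.14 and -0.15 for ULK2, -0.21, -0.22 and -0.25 for VPS11, -0.16, -0.16 and -0.15 for VPS13D, -0.05, -0.06 and -0.08 for VPS29, -0.08, -0.08 and -0.06 for VPS33B, -0.12, -0.12 and -0.14 for VPS36, -0.15 in each for VPS37B, and -0.14, -0.15 and -0.17 for VPS41. ATG4C turned to -0.01 with quantile scaling. With the highest transcript VPS8 turned to -0.69, VPS13D to -0.000266 and VPS36 to -0.00163. Leaving out 1 library moved CTSO between -0.24 (reproductive 1) and 0.16 (reproductive 3), with 0.05 without broody 1, and turned ULK2 to -0.09, VPS33B to -0.03, VPS37B to -0.02 and VPS13D to -0.01 (reproductive 1), VPS11 to -0.05, -0.04 and -0.04 (broody 1, broody 3, reproductive 2), VPS29 to -0.04 (reproductive 2) and VPS13B to 0.02 (reproductive 3). The cause of these changes was not tested.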
